A study of Mus musculus with 12 samples.

Results

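The genes described here are 8 transcription factor and repressor genes of the circadian clock: Arntl, Npas2 and Clock, which encode its activators, and Nfil3, Rora, Bhlhe40, Bhlhe41 and Ciart, most of them regulators that feed back on those activators. They were chosen by symbol from the table of raw counts, which holds 47747 symbols, and all 8 were found there and were among the 18593 genes that passed the filter on low counts. Total RNA of the meninges, the membranes around the brain, was sequenced in 12 C57BL/6 mice (given in the labels as C57bl/6). The first group is 6 mice labelled DSS, and the treatment protocol gives 2% dextran sulfate sodium in the drinking water for 5 days, then normal water, and culling after 6 days. DSS is a polymer that injures the colon lining and is used to induce colitis. The second group is 6 mice labelled Control, and no other treatment or genotype is given for either group. The labels state no age, sex, light cycle or clock time of tissue collection. If the groups differed in the hour of collection, that difference cannot be told apart from the treatment here.

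The clock is a feedback loop of transcription. BMAL1, the product of Arntl, pairs with CLOCK or its close relative NPAS2, and the pair binds E-box sequences and activates the genes of its own repressors, the PER and CRY proteins. A second loop acts on Arntl itself: ROR proteins activate and REV-ERB proteins, encoded by Nr1d1 and Nr1d2, repress it through the same element. In most mouse tissues the RNAs of Arntl and Npas2 therefore peak at the opposite phase to those of the Per genes and of Dbp. NFIL3 represses D-box genes, which DBP, TEF and HLF activate. BHLHE40 and BHLHE41 (also called DEC1 and DEC2) and CIART (also called CHRONO) restrain the BMAL1 pairs, and their own genes are E-box targets.

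Matches to the letters of the elements named above are shown for the 4 members with a match near their start, so that the letters can be seen. RefSeq start windows on GRCm38.p6, from 250 bases before to 50 bases after a transcript start, were present for 7 of the 8 members, 10 windows in all. Bhlhe40 had no window, so its start was not searched. The E-box was searched as CACGTG and the core of the ROR element as TAGGTCA or TGGGTCA, on both strands. Capitals mark the matches, and each sequence is given 5′ to 3′ on the strand of its gene.
Arntl, ROR element core, chr7:113207529-113207558, plus strand: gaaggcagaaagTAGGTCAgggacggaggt
Nfil3, ROR element core (on the opposite strand), chr13:52981034-52981063, minus strand: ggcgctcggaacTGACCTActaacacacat
Bhlhe41, E-box, chr6:145865556-145865585, minus strand: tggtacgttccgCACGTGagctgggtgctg
Ciart, E-boxes, chr3:95882259-95882358, minus strand: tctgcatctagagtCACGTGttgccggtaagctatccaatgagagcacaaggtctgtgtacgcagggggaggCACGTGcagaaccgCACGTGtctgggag

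The Arntl match begins at base 31 of the transcript from the second RefSeq start, and GENCODE M21 has it in an untranslated part of an exon. The Nfil3 match lies in an untranslated exon part as well, and the Bhlhe41 match lies 10 bases before the annotated gene. Ciart held 3 E-boxes, 16, 30 and 88 bases before the annotated gene. At least 3 E-boxes were found in 0.0883% of all 32851 windows, at least 1 E-box in 7.15% and at least 1 ROR element core in 6.45%. The D-box, searched as TTATGTAA or TTACGTAA, was in 1.06% of all windows and in none of the 10 windows of the members. The windows of Npas2, Clock and Rora held none of these letters. These matches describe the letters only.

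The libraries held 13078923 to 28544877 counts in DSS mice and 9312788 to 41869997 in controls. The source label reads Colon, but the titles and the RNA protocol speak of meninges. The summed level of 8 meningeal fibroblast markers was 9276 to 18506 CPM (counts-per-million, scaled to a common library size) in DSS mice and 9978 to 16037 CPM in controls. The sum of 8 colon epithelium markers was 1.32 to 9.65 CPM in DSS mice and 2.60 to 7.84 CPM in controls, and Cdx2 had no count in any library. Some libraries stood apart. Choroid plexus markers summed to 736 and 293 CPM in DSS replicates 3 and 4, against 3593 to 7124 CPM in the other DSS mice. They summed to 247 and 236 CPM in Control replicates 2 and 5, against 3337 to 7066 CPM in the other controls. Skeletal muscle markers summed to 191 CPM in DSS replicate 2, against 11.1 to 26.1 CPM in the other DSS mice and 18.0 to 27.6 CPM in controls. Ribosomal RNA features took 61.3% of the counts of Control replicate 2, against 1.27% to 4.66% in DSS mice and 1.13% to 10.5% in the other controls. All 10 neutrophil markers rose, and they summed to 249 to 1333 CPM in DSS mice and to 65.9 to 191 CPM in controls, with DSS replicate 3 the lowest DSS mouse.

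In DSS mice the activator genes Arntl and Npas2 fell, whereas Clock, Rora, Nfil3 and Bhlhe41 differed by less than the test could call. Ciart and Bhlhe40 had higher means in DSS mice without passing the test. In all, 2 of the 8 members fell and none rose at a Benjamini-Hochberg adjusted p under 0.05 (edgeR's quasi-likelihood test). Over all 18593 tested genes, 1.26% fell and 3.68% rose, 4.94% in all. With 1 mouse left out, the number of fallen genes over the whole table moved between 95 without DSS replicate 6 and 390 without DSS replicate 2. By limma-voom with quality weights it was 479. At an unadjusted p under 0.05 there were 4 members, against 19.0% of all tested genes. The DESeq2 Wald test called 4 members, 2 fallen and 2 risen. Of all 18593 tested genes it called 1551, 515 fallen and 1036 risen. The median log2 fold change of the members was 0.0040, beside -0.022 over all tested genes. Bulk RNA gives one level per tissue piece, so fewer cells of a type and less RNA per cell cannot be told apart in any of these values.

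**Figure D1:**
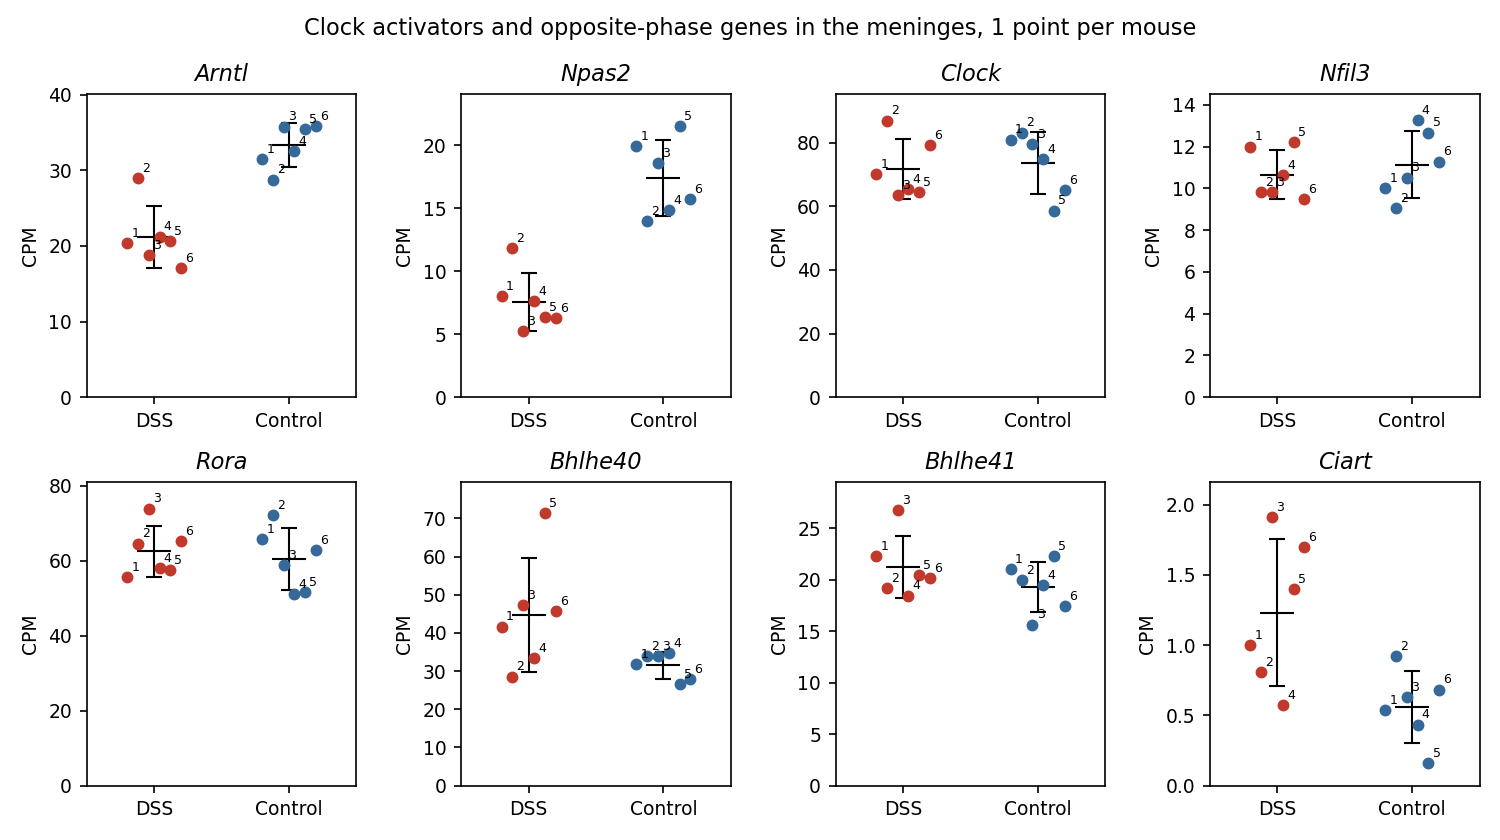
Level in CPM (vertical axis, from 0) of each member in each mouse, DSS left and Control right, with replicate numbers beside the points and the mean and SD (n = 6 each) as bars. For Npas2 all DSS points lie below all control points, and for Arntl only DSS replicate 2 lies among the controls.

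Npas2 showed the largest fall among the members. This gene encodes the partner of BMAL1 that can stand in for CLOCK, and it is best known from the forebrain and the vasculature. It lay at 8.00, 11.8, 5.22, 7.63, 6.34 and 6.29 CPM in DSS replicates 1 to 6, against 19.9, 14.0, 18.6, 14.9, 21.5 and 15.7 CPM in Control replicates 1 to 6. All 6 DSS mice were thus below the lowest control, a separation that 0.823% of all tested genes showed in this direction and that no other member showed. No member had all 6 DSS mice above the highest control, which 2.23% of tested genes had. The means were 7.55 ± 2.32 CPM in DSS mice and 17.4 ± 3.02 CPM in controls (SD, n = 6 each). The log2 fold change was -1.23 ± 0.17 SE, or 42.7% of the control level (edgeR adjusted p = 0.00123). In the DSS mice the highest value was that of replicate 2 and the lowest that of replicate 3.

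Npas2 is on chromosome 1 from 39193731 to 39363236 (GENCODE M21, GRCm38, the assembly that mm10 names), and its values are counts per whole gene. Markers of neurons and glia, cells in which Npas2 is also expressed, summed to 142 to 273 CPM in DSS mice and 191 to 282 CPM in controls. None of these 9 markers was called by edgeR. The one with an unadjusted p under 0.05 was Snap25, a synaptic gene of neurons, at 62.8 ± 12.0 CPM in DSS mice and 94.5 ± 20.4 CPM in controls (SD, n = 6 each), just short of the call (log2 fold change -0.59, edgeR adjusted p = 0.0504). Snap25 was called as fallen by the DESeq2 Wald test, and limma-voom called 2 of the 9 markers as fallen. By edgeR 1 of the 9 was called as fallen without DSS replicate 2, 3 or 5 and without Control replicate 1. The edgeR count was also 1 without both Control replicate 2 and DSS replicate 2, and with a CPM of at least 1 in 6 libraries. The highest sum among DSS mice was in replicate 2, the DSS mouse with the most Npas2. Control replicate 1 had the lowest sum among controls, at 191 CPM, with 19.9 CPM of Npas2.

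Other marker genes fell beside Npas2 and Arntl. Of 8 bone markers 3 fell: Acp5, Ibsp and Ctsk, genes of bone-resorbing and bone-forming cells, with log2 fold changes of -1.76, -1.06 and -0.66 (edgeR adjusted p = 0.0019, 0.0416 and 0.0221). That count was 1 without DSS replicate 1 or 6 or without Control replicate 2, 3 or 5. The 8 bone markers summed to 615 to 1677 CPM in DSS mice and 1080 to 1827 CPM in controls. Of the 8 fibroblast markers 1 fell, Aldh1a2, a retinoic acid synthesis gene (log2 fold change -0.62, edgeR adjusted p = 0.00874). Of 7 endothelium markers none was called by edgeR, and 3 had an unadjusted p under 0.05. They summed to 832 to 1320 CPM in DSS mice and 775 to 1151 CPM in controls. None of 8 choroid plexus markers was called by edgeR. The part of neurons, glia, bone cells, fibroblasts, endothelium and choroid plexus in the falls of Npas2 and Arntl was not tested.

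Arntl, the gene of BMAL1 and the one clock activator without a substitute in the mouse, fell by a smaller factor. Its levels were 20.4, 29.0, 18.8, 21.2, 20.7 and 17.0 CPM in DSS replicates 1 to 6, against 31.4, 28.8, 35.8, 32.5, 35.5 and 35.9 CPM in Control replicates 1 to 6. The groups overlapped through a single pair: DSS replicate 2 was just above Control replicate 2, and the other 5 DSS mice were below every control. Means were 21.2 ± 4.12 CPM in DSS mice and 33.3 ± 2.90 CPM in controls (SD, n = 6 each). The log2 fold change was -0.66 ± 0.11 SE, or 63.3% of the control level (edgeR adjusted p = 0.00349).

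The overlapping libraries are those with the high muscle sum and the high ribosomal RNA share. Without DSS replicate 2 the log2 fold change of Arntl was -0.75 (edgeR adjusted p = 0.000205), and without both libraries it was -0.79 (edgeR adjusted p = 0.000396). That of Npas2 was -1.37 and -1.43 in the same settings (edgeR adjusted p = 0.000171 and 0.000396). Both falls were therefore at least as large without DSS replicate 2, and without both DSS replicate 2 and Control replicate 2. Arntl is on chromosome 7 from 113207465 to 113314126.

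Clock, which encodes the usual partner of BMAL1 and whose RNA cycles weakly in most mouse tissues, did not follow them. It lay at 70.1, 86.9, 63.4, 65.4, 64.5 and 79.3 CPM in DSS replicates 1 to 6, against 80.9, 83.1, 79.5, 74.7, 58.6 and 65.1 CPM in Control replicates 1 to 6. The highest value of all was in a DSS mouse and the lowest in a control, so the groups overlapped throughout. The log2 fold change was -0.040 with a 95% interval of -0.26 to 0.18 (edgeR adjusted p = 0.895). Clock is on chromosome 5 from 76209868 to 76304792.

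Whether the partners changed unequally was tested as a ratio within each mouse, by an exact two-sided permutation test over all 924 splits of the mice, adjusted over 3 ratios. The log2 ratio of Npas2 to Clock was -3.27 ± 0.30 in DSS mice and -2.08 ± 0.38 in controls (SD, n = 6 each), with all 6 DSS mice below the lowest control. The difference of -1.19 gave an exact permutation p of 0.00216, the smallest this design can give, and an adjusted p of 0.00325. Npas2 alone had already separated the groups and Clock was not called, so the result for this ratio largely repeats those values. Npas2 also fell more than Arntl: their log2 ratio was -1.51 ± 0.21 in DSS mice and -0.94 ± 0.22 in controls (SD, n = 6 each), again without overlap. The difference was -0.56 (exact permutation p = 0.00216, adjusted p = 0.00325). With levels divided by exon length in GENCODE M21, Clock RNA exceeded Npas2 RNA 3.47 ± 0.73-fold in DSS mice and 1.52 ± 0.37-fold in controls (SD, n = 6 each).

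**Figure D2:**
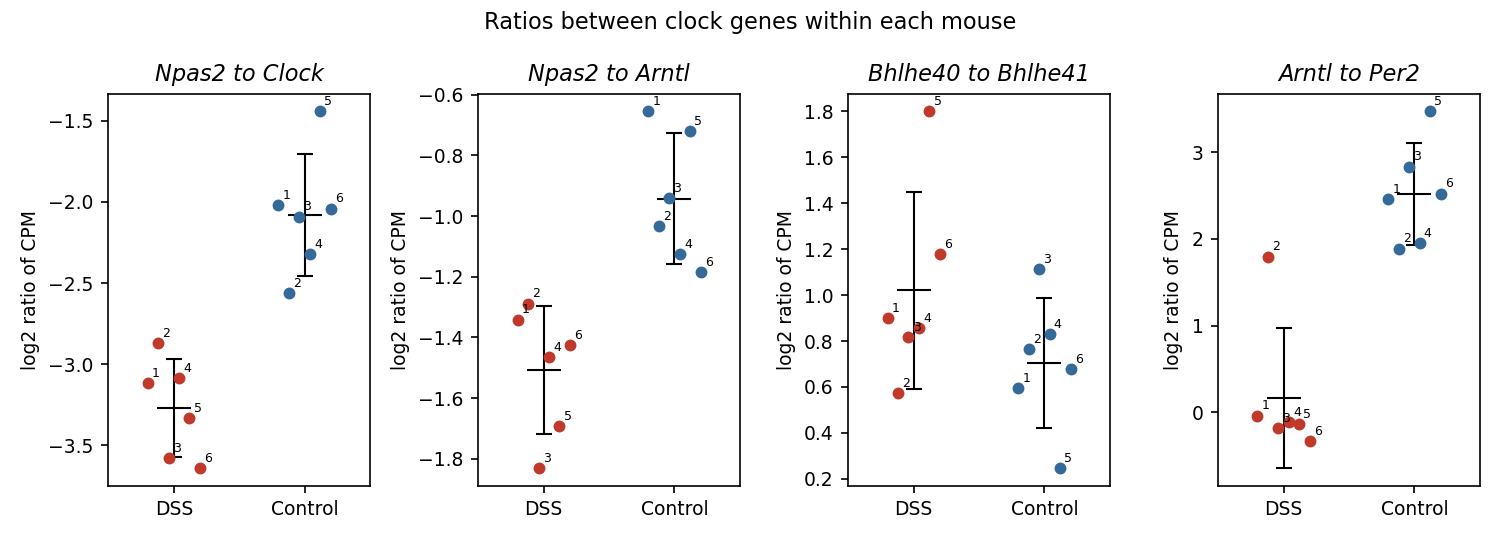
Log2 ratio of CPM between pairs of clock genes (vertical axes, scales differ) in each mouse, DSS left and Control right, replicate numbers beside the points, with mean and SD (n = 6 each). The ratios of Npas2 to Clock and to Arntl do not overlap between groups, the ratio of Bhlhe40 to Bhlhe41 does, and in the ratio of Arntl to Per2 DSS replicate 2 lies at 1.80, next to the lowest control at 1.89.

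Rora, whose product activates Arntl through the ROR element, kept an overlapping range. Its levels were 55.7, 64.6, 73.9, 58.0, 57.6 and 65.3 CPM in DSS replicates 1 to 6, against 65.9, 72.3, 59.0, 51.2, 51.6 and 62.9 CPM in Control replicates 1 to 6. The log2 fold change was 0.048 with a 95% interval of -0.16 to 0.25 (edgeR adjusted p = 0.858). Rora is on chromosome 9 from 68653786 to 69388246.

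Nfil3, which encodes the D-box repressor NFIL3 (also called E4BP4) and is also induced by cytokines in immune cells, showed no difference that the test could call. It lay at 12.0, 9.84, 9.81, 10.6, 12.2 and 9.48 CPM in DSS replicates 1 to 6, against 10.0, 9.06, 10.5, 13.3, 12.7 and 11.3 CPM in Control replicates 1 to 6. All DSS values were within the range of the controls. The log2 fold change was -0.064 with a 95% interval of -0.29 to 0.16 (edgeR adjusted p = 0.820). Like Arntl it holds a ROR element core at its start, and unlike Arntl its interval included 0. Nfil3 is on chromosome 13 from 52967209 to 52981073.

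The E-box repressor Bhlhe40 was higher in most DSS mice, with a wide spread. It lay at 41.7, 28.6, 47.2, 33.5, 71.4 and 45.6 CPM in DSS replicates 1 to 6, against 31.9, 34.0, 33.9, 34.7, 26.5 and 28.0 CPM in Control replicates 1 to 6. In 4 of 6 DSS mice the value was above the highest control, and DSS replicates 2 and 4 were within the control range. The means were 44.7 ± 14.9 CPM in DSS mice and 31.5 ± 3.44 CPM in controls (SD, n = 6 each), and the log2 fold change of 0.51 ± 0.18 SE did not pass (edgeR adjusted p = 0.115). It was 0.33 without DSS replicate 5 (edgeR adjusted p = 0.179) and 0.62 without DSS replicate 2, where it passed (edgeR adjusted p = 0.0313). Bhlhe40 is on chromosome 6 from 108660629 to 108666925.

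Bhlhe40 is also expressed in activated myeloid and lymphoid cells and induced by hypoxia. Of 10 hypoxia target genes none was called by edgeR or by the DESeq2 Wald test, and 1 had an unadjusted p under 0.05. This was Adm, the adrenomedullin gene, at 4.46 ± 1.87 CPM in DSS mice and 2.79 ± 0.86 CPM in controls (SD, n = 6 each; edgeR adjusted p = 0.155), and Ankrd37 had the next smallest p (edgeR adjusted p = 0.306). The neutrophil sum was lowest among DSS mice in replicate 3, at 249 CPM, where Bhlhe40 was exceeded by DSS replicate 5 alone. The part of these cells in the level of Bhlhe40 was not tested.

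Its paralog Bhlhe41 had a narrower spread among DSS mice. Bhlhe41 lay at 22.3, 19.2, 26.8, 18.5, 20.4 and 20.1 CPM in DSS replicates 1 to 6, against 21.1, 20.0, 15.6, 19.5, 22.3 and 17.5 CPM in Control replicates 1 to 6. Only DSS replicate 3 was above every control, and the log2 fold change was 0.13 with a 95% interval of -0.092 to 0.36 (edgeR adjusted p = 0.558). The log2 ratio of Bhlhe40 to Bhlhe41 was 1.02 ± 0.43 in DSS mice and 0.70 ± 0.28 in controls (SD, n = 6 each). The difference of 0.32 did not pass (exact permutation p = 0.160, adjusted p = 0.160), so unequal change of the paralogs was not shown. That difference was 0.16 without DSS replicate 5. Bhlhe41 is on chromosome 6 from 145858243 to 145865558. A gene annotated on the opposite strand, Gm43909, shares 1280 of its 6720 exonic bases and had 163 counts over all libraries, against 6015 for Bhlhe41, so some of its reads are uncertain if counting did not use strand.

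Ciart, the member with 3 E-boxes before its start, was the least abundant. It had 25, 11, 48, 14, 40 and 51 counts in DSS replicates 1 to 6, and 25, 11, 7, 9, 4 and 21 counts in Control replicates 1 to 6. In CPM these were 1.00, 0.808, 1.91, 0.575, 1.40 and 1.70 in DSS mice, against 0.539, 0.922, 0.629, 0.435, 0.160 and 0.683 in controls. In 4 of 6 DSS mice the value was above the highest control, and DSS replicates 2 and 4 were again within the control range. The means were 1.23 ± 0.52 CPM in DSS mice and 0.56 ± 0.26 CPM in controls (SD, n = 6 each). The log2 fold change of 1.19 ± 0.37 SE did not pass (edgeR adjusted p = 0.0816), with a 95% interval of 0.40 to 1.99. It passed the filter on low counts with 6 DSS and 4 control libraries at the required level. Ciart is on chromosome 3 from 95878503 to 95882251.

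Compared per length, in CPM per kilobase of exon, Bhlhe40 stood first with 9.49 ± 3.17 in DSS mice and 6.69 ± 0.73 in controls (SD, n = 6 each). Nfil3, Clock and Rora followed at 5.26 ± 0.58, 5.22 ± 0.69 and 4.78 ± 0.52 in DSS mice and 5.49 ± 0.79, 5.37 ± 0.71 and 4.63 ± 0.63 in controls. Nfil3 and Clock differed by less than their SDs in both groups, and so did Clock and Rora in DSS mice. Arntl was at 2.82 ± 0.55 in DSS mice and 4.43 ± 0.39 in controls, where it lay within an SD of Rora. Bhlhe41 lay at 3.16 ± 0.45 in DSS mice and 2.88 ± 0.36 in controls. Its mean was thus above that of Arntl in DSS mice, within their SDs, and below it in controls by more than either SD. Npas2 was at 1.58 ± 0.48 in DSS mice and 3.64 ± 0.63 in controls, and Ciart was last with 0.545 ± 0.232 in DSS mice and 0.248 ± 0.113 in controls. The lengths come from GENCODE M21, which may differ from the annotation the authors counted with.

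The other genes of the loop put these values in context, and both sets below were chosen with earlier results of these data known. Of the 7 repressor genes Per1, Per2, Per3, Cry1, Cry2, Nr1d1 and Nr1d2, 2 rose and none fell, with a median log2 fold change of 0.42. Per2, a repressor that E-boxes drive, lay at 20.99, 8.30, 21.3, 23.0, 22.8 and 21.6 CPM in DSS replicates 1 to 6, against 5.63, 7.71, 4.94, 8.37, 3.12 and 6.18 CPM in Control replicates 1 to 6. DSS replicate 2, the mouse with the most Arntl in its group, had the least Per2 and lay below Control replicate 4. The other risen repressor, Per3, was at 59.9 ± 11.3 CPM in DSS mice and 35.7 ± 9.71 CPM in controls (SD, n = 6 each; edgeR adjusted p = 0.0200), and its call was lost without DSS replicate 6 (edgeR adjusted p = 0.0517). It was above the highest control in 6 of 6 DSS mice.

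The REV-ERB genes, whose products repress Arntl, were not called by edgeR over all 12 libraries. Nr1d1 lay at 53.5 ± 14.7 CPM in DSS mice and 50.01 ± 10.9 CPM in controls, and Nr1d2 at 63.5 ± 11.6 CPM in DSS mice and 46.9 ± 10.9 CPM in controls (SD, n = 6 each). Their log2 fold changes were 0.097 (95% interval -0.27 to 0.47) and 0.44 (95% interval 0.11 to 0.77), with edgeR adjusted p = 0.835 and 0.121. Cry1, a repressor gene whose RNA peaks later than those of the Per genes in most mouse tissues, had a log2 fold change of 0.18 (95% interval -0.15 to 0.52).

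Of the 3 PAR-bZIP output genes, Dbp and Tef rose and Hlf was not called (log2 fold changes 0.91, 0.51 and 0.17, edgeR adjusted p = 0.0384, 0.0266 and 0.536). Dbp lay at 37.4, 30.0, 82.1, 31.8, 48.1 and 46.4 CPM in DSS replicates 1 to 6, against 24.7, 30.3, 17.4, 27.2, 17.0 and 30.0 CPM in Control replicates 1 to 6. The Dbp call was lost without any of Control replicates 1, 3, 4 and 5 and DSS replicates 5 and 6, at edgeR adjusted p = 0.0547 to 0.0881. That of Tef was lost without Control replicate 3 or 5 or DSS replicate 6, at edgeR adjusted p = 0.0609 to 0.0685. With the replicate number as a block, the calls of Per3, Dbp and Tef were lost (edgeR adjusted p = 0.0595, 0.127 and 0.0909), while those of Arntl, Npas2 and Per2 were kept.

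**Figure D3:**
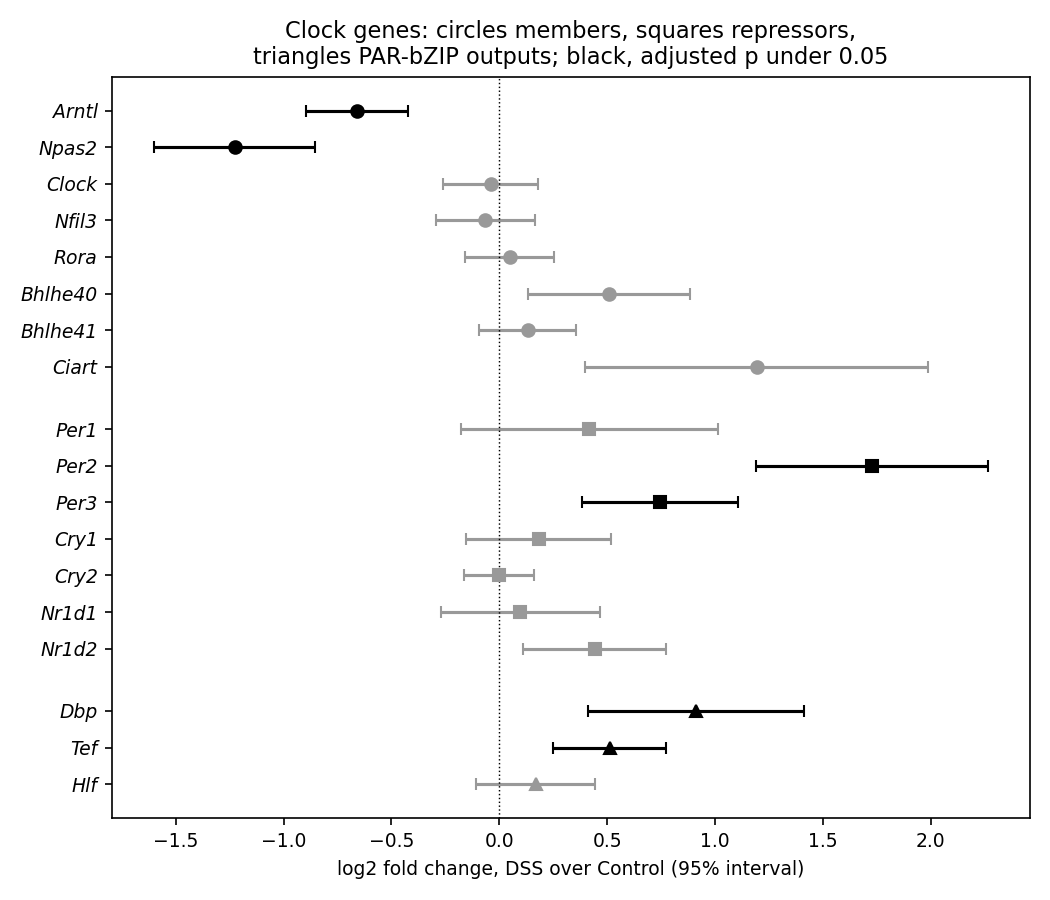
Log2 fold change, DSS over Control, with its 95% interval (horizontal axis) for the 8 members (circles), 7 repressors (squares) and 3 PAR-bZIP outputs (triangles), black where edgeR's adjusted p was under 0.05. Arntl and Npas2 lie left of 0, and Per2, Per3, Dbp and Tef lie right of it.

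None of 8 genes of clock protein turnover, such as the casein kinase gene Csnk1d, was called by edgeR or by the DESeq2 Wald test, and 1 (Csnk1d, log2 fold change 0.17, edgeR adjusted p = 0.148) had an unadjusted p under 0.05. Without DSS replicate 2, Csnk1d passed (log2 fold change 0.22, edgeR adjusted p = 0.0312), which made that count 1. Usp2, a deubiquitinase gene, had the next smallest p (log2 fold change 0.28, edgeR adjusted p = 0.291). Of 10 relatives of the activators 8 passed the filter and none was called by either tool, and none had an unadjusted p under 0.05; Sim2 and Epas1 had the smallest p (edgeR adjusted p = 0.308 and 0.463). Arntl2, the paralog of Arntl, had a log2 fold change of -0.075 (edgeR adjusted p = 0.922).

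Of 10 genes listed as clock-controlled outputs, 8 passed the filter and 2 rose: Alas1, the first enzyme gene of heme synthesis, and Pdk4, a kinase gene that restrains pyruvate oxidation. Alas1 was at 42.9 ± 4.42 CPM in DSS mice and 33.1 ± 2.34 CPM in controls, and Pdk4 at 7.11 ± 1.18 CPM in DSS mice and 4.54 ± 0.67 CPM in controls (SD, n = 6 each; edgeR adjusted p = 0.0109 and 0.0130). This count was 4 by the DESeq2 Wald test and 4 without DSS replicate 2. Pdk4 is also a glucocorticoid target. In a list of 9 such targets, to which Per1 belongs as well, 2 rose, Pdk4 and the cell-cycle inhibitor gene Cdkn1a (edgeR adjusted p = 0.0281). Leaving out Control replicate 3, or DSS replicate 4 or 5, made that count 1, as did testing with no filter on low counts.

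The number of clock genes outside the control range differed between the DSS mice. Of the 18 clock genes (8 members, 7 repressors, 3 outputs), 9, 3, 14, 7, 11 and 11 were outside the range of the controls in DSS replicates 1 to 6. The share of all tested genes outside the control range was not computed for each mouse, so these counts are descriptions only. DSS replicate 2 had the fewest: Clock and Per3 above and Npas2 below. DSS replicate 3 had the most, with Rora, Bhlhe40, Bhlhe41 and Ciart above and Arntl and Npas2 below. Arntl was below every control in the other 5 DSS mice and Npas2 in all 6. DSS replicate 2 carries the high muscle sum, and DSS replicate 3 the lowest neutrophil sum of its group. The part of these cells in the clock gene levels was not tested.

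**Figure D4:**
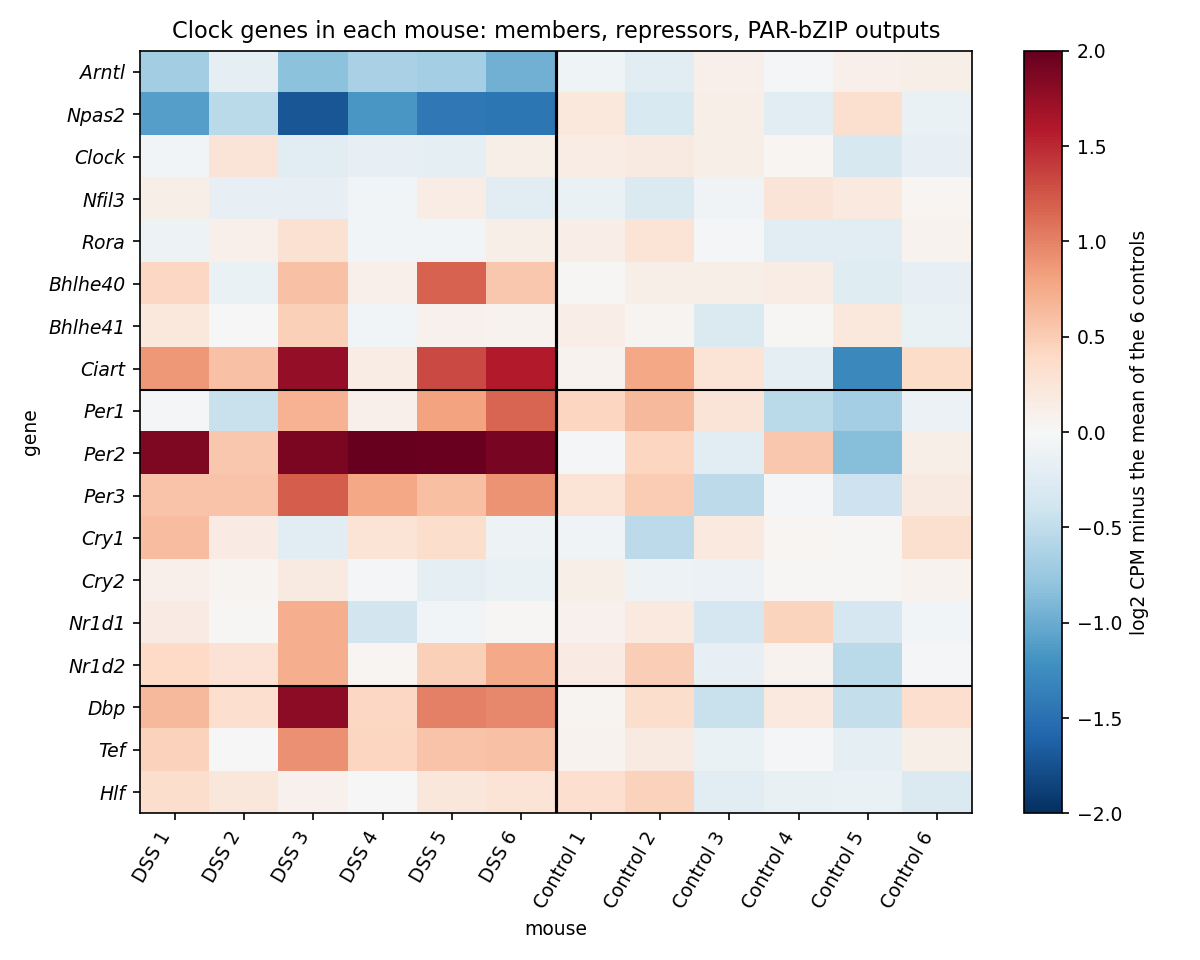
Log2 CPM minus the mean of the 6 controls (color, clipped at -2 and 2) for 18 clock genes (rows: members, repressors, PAR-bZIP outputs) in each mouse (columns, DSS left of the black line). DSS replicate 2 has 3 genes outside the control range and DSS replicate 3 has 14, and the share over all tested genes was not computed.

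Set against each other in each mouse, Arntl and Per2 gave a log2 ratio of -0.34 to -0.04 in 5 DSS mice and of 1.80 in DSS replicate 2, against 1.89 to 3.47 in controls. The medians were -0.13 in DSS mice and 2.49 in controls, and the groups did not overlap. This ratio is given without a test, because both genes were already called in opposite directions.

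Within a group, relations between Arntl and other clock genes could not be shown with 6 mice. Of 22 relations (11 in each group: the other 7 members, Per2, Per3, Dbp and Nr1d1), none passed adjustment over the 22, the lowest adjusted exact permutation p being 0.386. Arntl and Npas2 had Pearson's r = 0.89 and Spearman's rho = 0.77 in DSS mice (exact permutation p = 0.0292 and 0.103), and r = 0.81 without DSS replicates 2 and 6, which lay farthest from the median of Arntl. In controls r was 0.49 and rho 0.31 (exact permutation p = 0.310 and 0.564). Arntl and Per2 had r = -0.87 in DSS mice but rho = -0.086 (exact permutation p = 0.133 and 0.919), and r was 0.66 without DSS replicates 2 and 6, so that relation rests on those mice. In controls r was -0.60 and rho -0.37 for Arntl and Per2 (exact permutation p = 0.208 and 0.497).

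After each group's mean was subtracted, the genes whose log2 CPM was most like that of Arntl over the 12 libraries were Eno3, the muscle enolase gene (r = 0.93), Sptbn4 (0.91), Cpeb3 (0.90) and Tubgcp3 (0.89), among 12689 ranked genes. The least like were Spin4 (-0.91), Ankle2 (-0.91), Tm7sf3 (-0.90) and Tmem185b (-0.90). None of these 8 genes was called between the groups. Of the clock genes on the same measure, Npas2 ranked 42 of 12688 (r = 0.79), and Tef (-0.81), Per2 (-0.76) and Per1 (-0.75) were near the other end. Without DSS replicate 2 they were 0.92 for Eno3, 0.77 for Sptbn4, 0.90 for Cpeb3 and 0.64 for Tubgcp3, and -0.77 for Spin4, -0.81 for Ankle2, -0.75 for Tm7sf3 and -0.68 for Tmem185b. Among the clock genes they were then 0.52 for Npas2, -0.55 for Tef, -0.41 for Per2 and -0.67 for Per1, and Clock stood at -0.67, against 0.07 over the 12 libraries. Without that library the clock genes at the ends were Cry1 (0.83) and Nr1d2 (-0.85), against 0.49 and -0.64 over the 12 libraries. These correlations share libraries and group means and are given as descriptions.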

How the data were processed

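Per the labels' protocols, meningeal total RNA of 12 mice went into stranded libraries. Per the submitters' processing notes, CASAVA, FastQC, Trim Galore, HISAT2 and featureCounts were used with mm10. Versions, annotation, strand setting and the treatment of multi-mapping reads were not given in the sources used here. The deposited count table holds raw whole-number counts per symbol and was used for all main tests. The deposited normalized table (a signal) is each count column divided by 1 factor, tested on the values to equal the median-of-ratios size factor. Columns were matched to mice by heading, and 0 belonged to no sample.

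Genes were tested with edgeR 4.0.16 under R 4.3.3 (filterByExpr, min.count 10, min.total.count 15; TMM; quasi-likelihood F-test, treatment as the only term, two-sided, Benjamini-Hochberg over 18593 genes, threshold 0.05). Each SE was the size of the log2 fold change divided by the root of its F, and 95% intervals use the fit's degrees of freedom. Log2 CPM has a prior count of 2. Ratios and relations were tested by exact permutation. The edgeR step was tested on simulated counts.

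The members and lists were chosen with earlier results of these data known. All 8 members are named, with every called gene of each pathway or context list, or else the 2 with the smallest p, and the 4 genes at each end of likeness to Arntl whose log2 CPM averaged 1 or more. Alternatives were DESeq2 1.42.0 (size factors and Wald test), limma 3.58.1 (voom on counts, trend on log2 of the normalized values plus 1), other filters, a replicate block and each mouse left out. All 30 pairs of libraries within groups differed beyond sampling noise (chi-square over degrees of freedom at least 19.1). The series design counts 12 mice, so p-values measure the spread between animals. They do not cover a difference between the groups in the hour of collection, which is not stated.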

Additional observations from a re-analysis of the deposited data

How the results depend on the processing

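Over 20 alternatives, 2 members fell in each one, and Arntl and Npas2 were called in all 20, with log2 fold changes of -0.79 to -0.60 and -1.43 to -1.14. The number of risen members, none in the reported test, was 2 (Bhlhe40 and Ciart) by the DESeq2 Wald test and 2 without both Control replicate 2 and DSS replicate 2; with 1 mouse left out it was 0 to 1. Ciart had edgeR adjusted p = 0.0482 without both libraries and could not be tested with a CPM of at least 1 in 6 libraries. Genes called over the whole table numbered 919, 1551 by the DESeq2 Wald test and 538 to 1379 with 1 mouse left out (608 without Control replicate 5, 559 without DSS replicate 4, 538 without DSS replicate 6, 1379 without DSS replicate 2). The cause was not tested. Fallen genes numbered 235, between 112 and 151 without any of Control replicates 2 to 6, and 141, 390, 97 and 95 without DSS replicates 1, 2, 4 and 6. With 1 mouse left out, 3 uncalled members changed sign: Clock lay between -0.099 and 0.016 (positive without Control replicate 2), Nfil3 between -0.11 and 0.0018 (positive without Control replicate 4) and Rora between -0.0059 and 0.12 (negative without DSS replicate 3). The difference in the log2 ratio of Npas2 to Clock lay between -1.37 and -1.06 and that of Npas2 to Arntl between -0.63 and -0.50, each past the threshold in all 17 alternatives. Correlations over genes between mice with the same replicate number were -0.19 to 0.15. In replicate 5 alone, the value for the same number (0.154) was above the highest with another number (0.150). These values gave little sign of pairing by number but cannot exclude it. With the replicate block, 708 genes were called, 2 members fell and none rose, and the sign-flip test gave adjusted p = 0.0469 for both Npas2 ratios. No relation of Arntl within a group passed in any of 3 alternatives. Depth limits Ciart, with 4 to 51 counts per library, most.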
